A study of Mus musculus with 8 samples.

Results

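The Wnt ligands, their cell-surface receptors and the transcription effectors of the pathway were followed as 46 of the 55353 gene entries in a count table from cultured mouse aortic smooth muscle cells. The members were every Wnt ligand gene (19) and every frizzled receptor gene (10) by symbol, the co-receptors Lrp5, Lrp6, Ror1 and Ror2, the R-spondin genes Rspo1, Rspo2 and Rspo3 with the receptors Lgr4 and Lgr5 and the ligases Znrf3 and Rnf43, and the effectors Ctnnb1, Axin2, Lef1, Tcf7, Tcf7l1 and Tcf7l2. The rule takes them by gene symbol and uses no measured value. The polyA-enriched mRNA of 8 libraries was sequenced. Cells labelled wild type (WT) or knockout (KO) for E12, and cells labelled WT or KO for E47, gave 2 libraries per genotype. E12 and E47 are splice isoforms of the E protein encoded by Tcf3. All groups were primary cells thawed from frozen stock into culture dishes, with no treatment or other allele named. The labels leave out how the knockouts were made, the animals' age, and whether the independent extractions of a genotype were separate cultures. The p-values below therefore cover only variation between extractions, possibly technical, and a genotype may be 1 cell population.

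Wnt proteins are secreted lipid-modified ligands that bind frizzled receptors. Together with the co-receptor LRP5 or LRP6 they stop the destruction complex from degrading beta-catenin, which then enters the nucleus and acts with TCF and LEF factors on target genes such as Axin2. Other Wnts, with WNT5A as the best-known case, act through ROR1 or ROR2 and frizzled receptors without beta-catenin. R-spondins bind LGR receptors and remove the ligases ZNRF3 and RNF43, which otherwise clear frizzled receptors from the cell surface. In vascular smooth muscle, Wnt signalling has been linked to proliferation, migration and vessel wall remodelling.

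Library totals ran from 13909230 to 27517374 counts. Levels are CPM, counts scaled to a common library size after edgeR's trimmed mean of M values, and 3 counts in a library corresponded to between 0.117 and 0.224 CPM. The filter on low counts used all 4 genotypes, so a gene high in a single genotype could pass it through that genotype alone. Such a gene could hardly be called lower there. Of the 13992 genes that passed the filter on low counts, 32 were members. The other 14 were Wnt1, Wnt3, Wnt3a, Wnt6, Wnt7a, Wnt8a, Wnt8b, Wnt9b, Wnt10a, Fzd10, Lgr5, Rnf43, Rspo1 and Lef1, none with more than 31 counts over all 8 libraries, and Wnt9b had no count at all. All 12 smooth muscle markers were counted in every genotype, with summed levels of 4530.4 to 4630.4 CPM in the E12 WT, 3484 to 3630.4 CPM in the E12 KO, 7836 to 7959 CPM in the E47 WT and 4174 to 4592 CPM in the E47 KO. Acta2 and Cald1 made up most of each sum. Other markers were low in the E12 libraries, with Tagln at 0.781 to 1.85, Myh11 at 2.03 to 8.82 and Cnn1 at 2.27 to 7.72 CPM. In the E47 WT Tagln was at 18.5 and 17.0, Myh11 at 97.0 and 99.5 and Cnn1 at 106 and 101 CPM. Smtn and Tpm2 were at 99.4 CPM or above in all E12 libraries. The E47 WT libraries also carried endothelial transcripts: the 12 endothelial markers summed to 666 to 729.6 CPM there and to between 4.68 and 12.4 CPM in the other 6 libraries. Pecam1 was at 211 and 194 CPM in the E47 WT and at no more than 2.24 CPM elsewhere, and Cdh5 was at 174 and 167 CPM in the E47 WT. Not every endothelial marker was high there. Kdr was at 2.15 and 2.65 CPM in the E47 WT, below its 5.17 and 2.84 CPM in the E12 WT. Robo4 was at 0 and 0.0390 CPM in the E47 WT, and Cldn5 was at 0 in all libraries. Mesothelial markers summed to 1738 to 1863 CPM in the E12 WT, 1081 to 1111 CPM in the E12 KO, 345 to 363 CPM in the E47 WT and 520.1 to 532 CPM in the E47 KO, with Wt1 at 0 in the E47 WT only. Between the E47 genotypes that sum hid opposite shifts. Of 8 tested mesothelial markers 6 were higher in the KO and 2 lower (median log2 change 3.13), against 27.7% and 27.5% of all genes. Msln went from 1.0 and 1.17 CPM to 42.4 and 45.7, Krt19 from 12.3 and 13.6 to 148 and 156, and Krt18 from 122 and 111 down to 1.09 and 1.27. Fibroblast markers summed to 774 to 791 CPM in the E47 WT and 1207 to 1252 CPM in the E47 KO, and to 727 to 752 CPM in the E12 libraries. Gsn alone made up most of each sum, at 539 and 567 CPM in the E47 WT, 756 and 743 in the E47 KO and 516 to 539 in the E12 libraries. Clec3b and Dpep1 were at 0.535 CPM or below in every library. In bulk RNA, fewer cells of a type and less RNA per cell cannot be told apart, and the part of these other cell types in the results below was not tested.

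Many members differed between each knockout and its wild type, in E12 at about the share seen over all genes. In the E12 KO 6 of the 32 tested members were higher and 9 lower than in the E12 WT, against 21.9% and 24.5% of all genes tested (46.4% in either direction). In the E47 KO 12 were higher and 13 lower than in the E47 WT, against 27.7% and 27.5% of all genes (55.2% in either direction). The median log2 change of the tested members was -0.25 in the E12 KO and -0.09 in the E47 KO, beside -0.01 and 0.01 over all genes. These shares were near the background in E12, and the E12 count of lower members fell to 5 without the first E12 KO library. The change itself differed between the knockouts for 19 of 32 members, where 48.6% of all genes tested differed, 7 with the E12 change above the E47 change and 12 with it below, against 22.9% and 25.7% of all genes. A change is a log2 fold change with its standard error (SE), tested with edgeR's quasi-likelihood F test, and a gene is called higher or lower at an adjusted p under 0.05 over all genes tested.

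**Figure D1:**
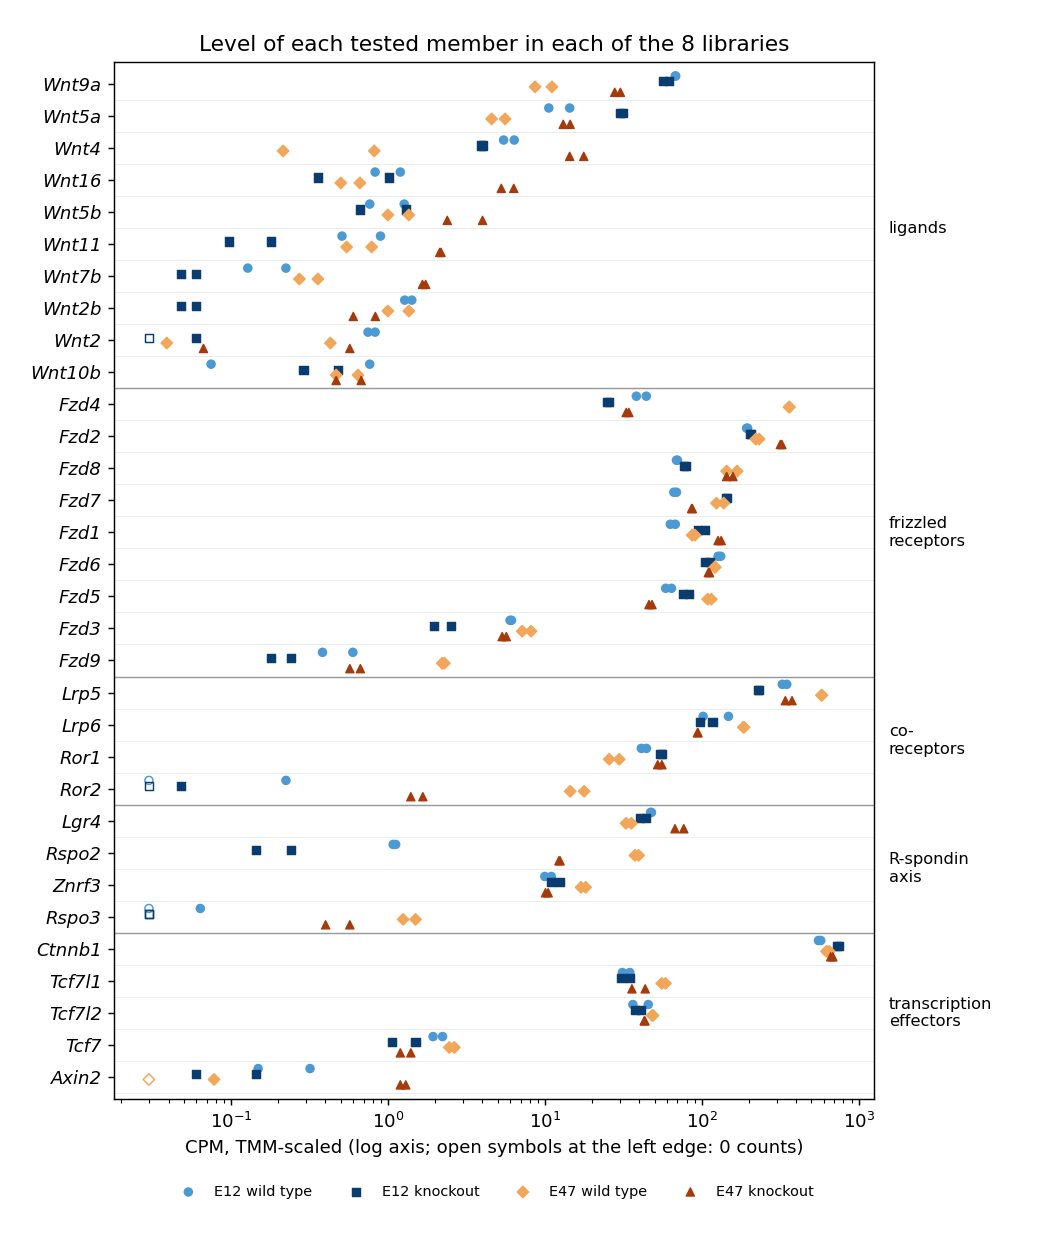
CPM on a log axis for the 32 tested members, grouped by role, with 1 symbol per library and 4 symbol types for the genotypes (open symbols at the left edge are 0 counts). The E47 WT stood far to the right for Fzd4, Ror2 and Rspo2 and to the left for Wnt9a, Wnt5a and Wnt4.

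In the E47 KO 7 of the 10 tested ligands were higher than in the E47 WT and none was lower with edgeR, with 0 lower also at an unadjusted p under 0.05 and 0 with DESeq2, where 27.7% of all genes were higher and 27.5% lower. Of the 7, Wnt7b was at 0.358 CPM or below outside the E47 KO and passed the filter on low counts only through that group. Ligands such as Wnt8a, with 7 counts in the E47 WT and 1 in the E47 KO, were not tested and could not be called lower. Wnt2b leaned lower in the E47 KO (-0.74, edgeR unadjusted p = 0.054). Markers of other cell types also moved between the E47 genotypes, in both directions. Fibroblast markers were higher in 6 and lower in 3 of 10 tested (median 0.81). Dcn was at 2.15 and 1.95 CPM in the E47 WT and 90.3 and 98.9 in the E47 KO. Cd34 fell from 95.1 and 91.6 CPM to 18.1 in each E47 KO library. Mesothelial markers were higher in 6 of 8 and lower in 2, and all 10 tested endothelial markers were lower (median -6.97). Their part in the ligand values was not tested. In the E12 KO only Wnt5a was higher among the 10 ligands, and Wnt2, Wnt2b, Wnt4 and Wnt11 were lower. There 21.9% of all genes were higher and 24.5% lower. The summed level of all 19 ligands per kilobase of exon was 25.6 and 25.9 CPM per kb in the E12 WT and 23.1 and 24.2 in the E12 KO. It was 5.83 and 4.98 CPM per kb in the E47 WT and 18.4 in each E47 KO library. The E47 WT was thus the genotype with the least Wnt ligand mRNA, and its libraries did not overlap those of any other genotype in this sum.

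Wnt9a was the most abundant ligand per length in every genotype. Its gene lies on chromosome 11 from 59306928 to 59333552 in GRCm38, on the plus strand. Its levels were 67.8 and 68.2 CPM in the E12 WT, 56.7 and 62.0 in the E12 KO, 11.1 and 8.66 in the E47 WT and 30.3 and 27.9 in the E47 KO. The E12 libraries were the highest, the E47 WT was the lowest and no genotype overlapped another. Wnt9a rose in the E47 KO (log2 change 1.59, SE 0.111, edgeR adjusted p = 1.5e-08) and did not pass the test in the E12 KO, and the difference between the changes was -1.79 (SE 0.141, adjusted p = 8.2e-08). Its share of all ligand signal per length was 79.4% ± 0.294 (SD, n = 2 libraries) in the E12 WT, 75.4% ± 2.34 in the E12 KO, 54.7% ± 3.54 in the E47 WT and 47.5% ± 2.81 in the E47 KO.

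Wnt5a, the ligand best known for signalling without beta-catenin, rose in both knockouts. Its gene spans 28504750 to 28527448 on chromosome 14. Its levels were 10.6 and 14.4 CPM in the E12 WT and 31.3 and 30.3 in the E12 KO (1.32, SE 0.124, adjusted p = 6.4e-07). They were 4.58 and 5.58 CPM in the E47 WT and 14.5 and 13.1 in the E47 KO (1.41, SE 0.152, adjusted p = 1.7e-06). In each pair both knockout libraries lay above both wild-type libraries, and the E47 KO libraries, at 13.1 and 14.5, overlapped the range of the E12 WT. The 2 changes differed by -0.10 (SE 0.199, adjusted p = 0.71). Wnt5a took 6.19% ± 1.28 of the ligand signal per length in the E12 WT and 16.7% ± 0.944 in the E12 KO. In E47 its share was 12.2% ± 3.01 in the WT and 9.60% ± 0.70 in the KO, while its level rose.

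Wnt4, a ligand needed for kidney and female reproductive tract development, had the largest log2 change among the members with more than 3 counts in each E47 group. Its gene spans 137277489 to 137299726 on chromosome 4. Its levels were 6.38 and 5.46 CPM in the E12 WT, 4.05 and 3.90 in the E12 KO, 0.215 and 0.819 in the E47 WT and 14.4 and 17.7 in the E47 KO. It was near the floor in the E47 WT and highest in the E47 KO, with no overlap between any genotypes. The E47 change was 4.71 (SE 0.258, adjusted p = 9.2e-10). Without the second E47 WT library, where most of the wild-type counts were, it was 6.17 (adjusted p = 6.3e-09). Wnt4 moved the other way in E12 (-0.58, SE 0.217, adjusted p = 0.041), and the changes differed by -5.29 (adjusted p = 1.5e-08), or by -6.74 (adjusted p = 1.6e-08) without the second E47 WT library. The E12 call did not hold without the first E12 WT library (-0.45, adjusted p = 0.18), the first E12 KO library (-0.60, 0.10) or the second (-0.54, 0.12), or with DESeq2 (-0.58, 0.064). In the E47 KO Wnt4 made up 20.9% ± 2.97 of the ligand signal per length, after 2.40% ± 2.15 in the wild type.

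Wnt16, a ligand known for its role in cortical bone, was at 0.829 and 1.20 CPM in the E12 WT, 1.01 and 0.360 in the E12 KO, 0.501 and 0.663 in the E47 WT and 6.34 and 5.28 in the E47 KO. Only the E47 KO stood apart, and the other 6 libraries were all at 1.20 CPM or below. Its E47 change was 3.26 (SE 0.322, adjusted p = 7.3e-07), it did not pass the test in E12, and the changes differed by -3.73 (SE 0.589, adjusted p = 1.1e-04), or by -4.71 (adjusted p = 2.5e-05) without the first E12 KO library. Wnt11, a ligand of convergent extension movements, was at 0.510 and 0.897 CPM in the E12 WT and 0.0965 and 0.180 in the E12 KO (-2.30, SE 0.624, adjusted p = 0.0071). It was at 0.788 and 0.546 CPM in the E47 WT and 2.18 and 2.14 in the E47 KO (1.76, SE 0.339, adjusted p = 4.9e-04). Wnt11 thus fell in one knockout and rose in the other, with a difference of -4.06 (SE 0.706, adjusted p = 2.5e-04). Gm8398 overlaps 8.8% of its exon length. Its E12 call, which rests on 5 counts in the knockout, did not hold without the first E12 KO library (-1.89, adjusted p = 0.077) or the second E12 WT library (-1.88, 0.074).

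Wnt5b, a close relative of Wnt5a, was at 1.0 and 1.36 CPM in the E47 WT and 2.39 and 4.01 in the E47 KO (1.35, SE 0.339, adjusted p = 0.0037). That call did not hold without the second E47 KO library (0.97, adjusted p = 0.062), and the 2 E12 genotypes overlapped between 0.661 and 1.30 CPM. Wnt7b, a ligand of lung and brain vessel development, was at 0.358 and 0.273 CPM in the E47 WT and 1.66 and 1.74 in the E47 KO (2.45, SE 0.386, adjusted p = 8.0e-05). In E12 Wnt7b had 5 counts in the WT and 2 in the KO, with no call (adjusted p = 0.22). The change differed from that in E12 by -4.02 (adjusted p = 0.0064), a call that was lost without the second E12 WT library (-3.61). With so few E12 counts the size of that difference depends on the prior count.

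Wnt2 and Wnt2b, ligands that specify the lung in the embryo, were nearly lost in the E12 KO. Wnt2b had 39 counts in the E12 WT, at 1.28 and 1.42 CPM, and 2 in the knockout, a ratio of 25.1 with an exact 95% counting interval of 6.49 to 214 (edgeR adjusted p = 2.9e-05). Wnt2 had 23 counts in the E12 WT, at 0.829 and 0.747 CPM, and 1 count in the knockout, a ratio of 29.6 with an interval of 4.80 to 1219 (adjusted p = 0.0048). The Wnt2 call did not hold without the first E12 KO library (-3.56, adjusted p = 0.051) and was at -6.82 (0.013) without the second. Both genes were still counted in the E47 KO. Wnt2b was at 0.832 and 0.602 CPM there, below its 1.0 and 1.36 CPM in the E47 WT (-0.74, edgeR adjusted p = 0.088). Wnt2 was at 0.572 and 0.0668 CPM in the E47 KO and 0.430 and 0.0390 in the E47 WT (0.93, adjusted p = 0.41). Neither gene passed the test in E47. Their changes differed between the knockouts by -3.73 (adjusted p = 0.0011) for Wnt2b and -5.49 (adjusted p = 0.0092) for Wnt2. The Wnt2 difference was lost without the first E47 KO library (-3.22, adjusted p = 0.38). It ranged from -7.75 (0.014) without the second E12 KO library through -7.51 (0.0023) without the first E47 WT, -6.20 (0.0047) without the second E47 KO and -4.49 (0.043) without the first E12 KO library to -4.24 (0.035) without the second E47 WT library. The counting intervals cover counting error only and leave out the spread between libraries. Reads that carry no molecular identifier may also be copies of 1 molecule, in which case the intervals are too narrow. Wnt10b was at 0.0747 to 0.766 CPM with overlapping genotypes.

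E proteins bind the E-box, CANNTG, and TCF and LEF factors bind CTTTGAT-like sites, so the promoters of ligands and receptors that moved apart between genotypes are shown. RefSeq (GRCm38.p6) gave 42 promoters for 32 of the 46 members, and the 250 bases before each start site were searched on both strands. CANNTG, which reads as the same pattern on both strands and includes CAGCTG and CAGGTG, was found in 23 of the 42 (54.8%) and in 66.2% of all 32851 promoters of the same length. CTTTGAT or its reverse complement was found in 2 of the 42 and in 3.21% of all promoters. Capitals mark matches to either motif in the 4 sequences below, each written 5′ to 3′ on the strand of its gene. They are the most abundant ligand (chr11:59306680-59306929, plus strand), a ligand that was highest in the E47 KO (chr6:22287977-22288226, plus), a ligand with opposite changes in the knockouts (chr7:98834862-98835111, plus) and a receptor that fell between the E47 genotypes (chr13:53286125-53286374, minus).
Wnt9a: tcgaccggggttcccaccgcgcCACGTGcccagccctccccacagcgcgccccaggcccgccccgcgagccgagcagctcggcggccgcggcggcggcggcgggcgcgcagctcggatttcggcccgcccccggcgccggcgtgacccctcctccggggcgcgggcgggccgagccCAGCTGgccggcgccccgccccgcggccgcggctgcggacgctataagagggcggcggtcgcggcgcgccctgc
Wnt16: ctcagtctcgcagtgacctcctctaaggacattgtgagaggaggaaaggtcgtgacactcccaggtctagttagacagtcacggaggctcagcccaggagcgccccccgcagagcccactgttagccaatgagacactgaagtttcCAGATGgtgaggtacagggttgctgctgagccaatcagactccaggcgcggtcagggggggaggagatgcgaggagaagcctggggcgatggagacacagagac
Wnt11: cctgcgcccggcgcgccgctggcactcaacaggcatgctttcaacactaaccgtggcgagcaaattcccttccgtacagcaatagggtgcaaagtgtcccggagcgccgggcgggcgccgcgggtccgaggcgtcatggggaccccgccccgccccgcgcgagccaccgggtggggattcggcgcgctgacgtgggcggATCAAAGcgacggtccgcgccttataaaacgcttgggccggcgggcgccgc
Ror2: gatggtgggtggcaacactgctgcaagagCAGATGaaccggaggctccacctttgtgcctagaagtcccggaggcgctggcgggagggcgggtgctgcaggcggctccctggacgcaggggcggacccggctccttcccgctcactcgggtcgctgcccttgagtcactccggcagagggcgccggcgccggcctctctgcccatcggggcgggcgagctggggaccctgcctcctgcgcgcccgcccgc
Wnt9a held CACGTG at 228 and CAGCTG at 74 bases before the start site. Wnt16 held CAGATG at 104 bases, and Ror2 held CAGATG at 221 bases. Wnt11 held ATCAAAG at 51 bases, the reverse complement of CTTTGAT, and no CANNTG in this window, while a second RefSeq promoter of Wnt11 held CAGTTG at 168 bases. Fzd4, Fzd7, Lgr4 and Axin2 had no match to either motif in their 250 bases, Wnt4 held CACCTG at 15 bases and Fzd5 held CAGGTG at 20 bases. A match is a run of letters and was not tested for binding.

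**Figure D2:**
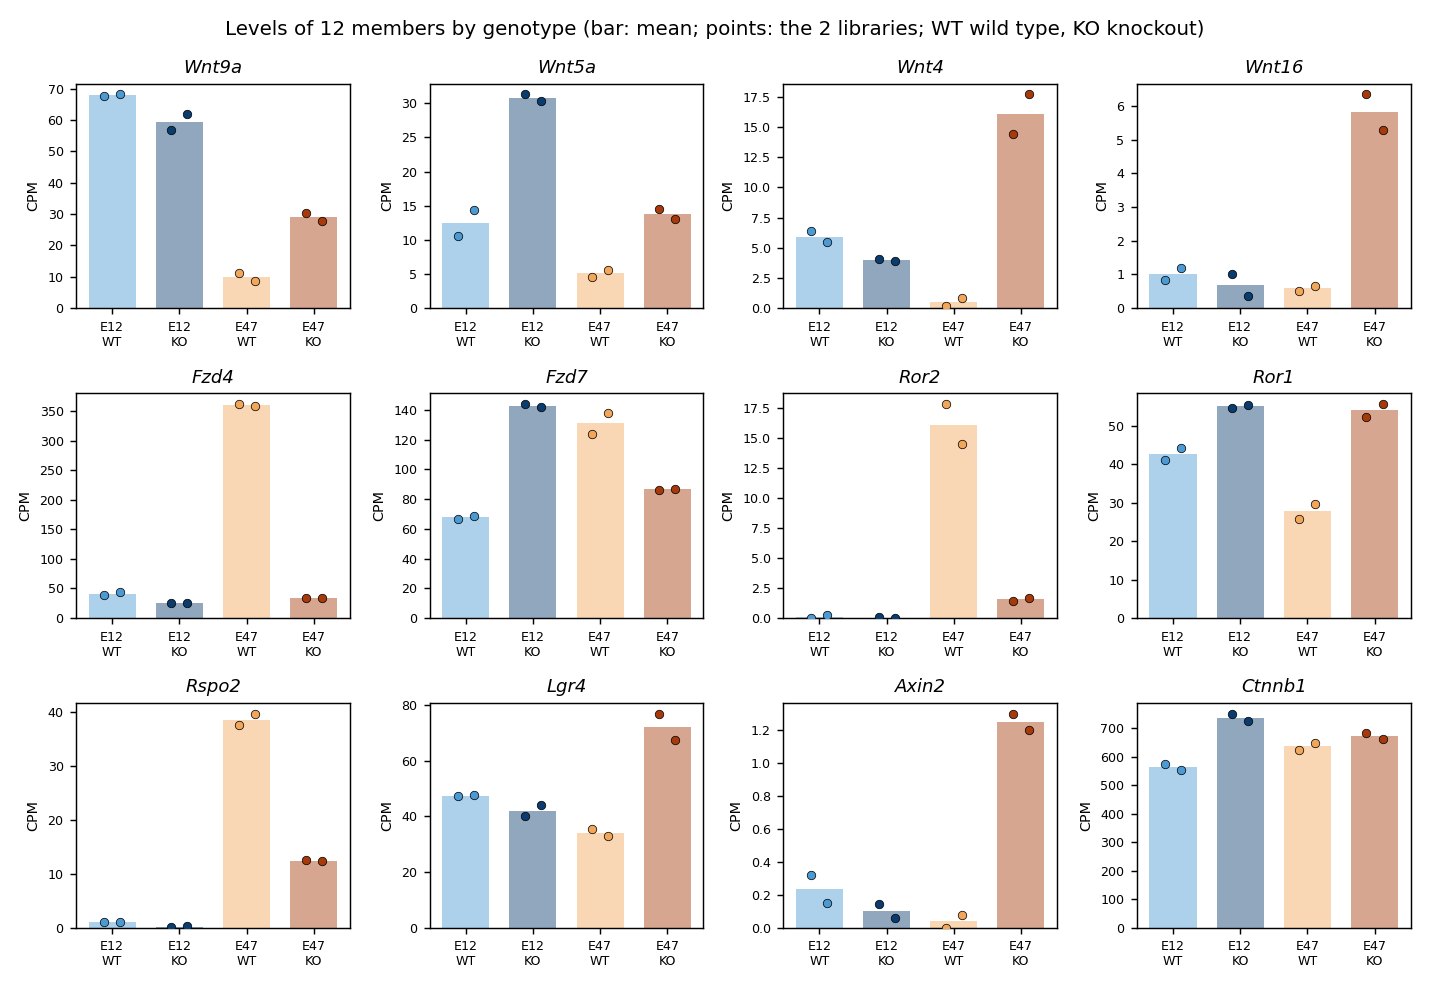
CPM by genotype for 12 members, with a bar for the mean and a point for each of the 2 libraries. Wnt9a, Wnt5a, Wnt4 and Wnt16 were higher in the E47 KO than in the E47 WT, and Fzd4, Ror2 and Rspo2 were lower.

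The frizzled genes, which encode the receptors that bind Wnt directly, were present in numbers in every genotype. Their summed level was 136 and 139.8 CPM per kb in the E12 WT, 163 and 162 in the E12 KO, 229 and 240.4 in the E47 WT and 197 and 199 in the E47 KO. Of the 9 tested, 3 were higher and 3 lower in the E12 KO, and 2 were higher and 5 lower in the E47 KO. Of all genes tested, 21.9% were higher and 24.5% lower in the E12 KO, and 27.7% and 27.5% in the E47 KO. Fzd2 took the largest share per length in every genotype, 38.6% ± 1.13 in the E12 WT, 34.5% ± 0.0325 in the E12 KO, 26.3% ± 0.0355 in the E47 WT and 44.1% ± 0.465 in the E47 KO.

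Fzd4, the receptor for the ligand norrin in retinal vessel growth, showed the widest range of any frizzled gene. Its gene spans 89404355 to 89413134 on chromosome 7. Its levels were 38.3 and 44.3 CPM in the E12 WT, 25.0 and 25.6 in the E12 KO, 362 and 359.7 in the E47 WT and 34.3 and 33.0 in the E47 KO. The E47 WT was several-fold above all other libraries, which lay between 25.0 and 44.3 CPM. Fzd4 fell in the E47 KO (-3.42, SE 0.0804, adjusted p = 9.8e-14), by 10.7-fold, and by 1.63-fold in the E12 KO (-0.71, SE 0.0847, adjusted p = 7.5e-06), and the changes differed by 2.72 (SE 0.115, adjusted p = 7.7e-11). It took 22.9% ± 0.888 of the frizzled signal per length in the E47 WT and between 2.32% and 4.45% as a mean in the other genotypes. Endothelial cells also express Fzd4, and the endothelial markers moved with it between the E47 genotypes, from 666 to 729.6 CPM down to 4.68 to 7.33 CPM in sum, with 10 of 12 counted in the knockout and Cldn5 and Robo4 at 0. Of the 12 smooth muscle markers, 10 were also lower in the E47 KO and 2 higher (median -1.04). The part of either marker set in the Fzd4 change was not tested.

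Fzd7 and Fzd5 went opposite ways in the 2 knockouts. Fzd7 was at 66.4 and 69.0 CPM in the E12 WT and 144 and 142 in the E12 KO (1.08, SE 0.0725, adjusted p = 1.6e-08). It was at 124 and 138 CPM in the E47 WT and 86.2 and 87.0 in the E47 KO (-0.60, SE 0.071, adjusted p = 4.8e-06). The difference was 1.68 (SE 0.101, adjusted p = 4.0e-09), and Fzd7 went from 10.8% ± 0.0759 to 19.4% ± 0.138 of the frizzled signal per length in E12. Fzd5 was at 58.9 and 64.1 CPM in the E12 WT and 75.5 and 82.9 in the E12 KO (0.36, SE 0.078, adjusted p = 0.0014). It was at 109 and 115 CPM in the E47 WT and 46.1 and 48.2 in the E47 KO (-1.25, SE 0.0781, adjusted p = 4.2e-09), and the changes differed by 1.62 (adjusted p = 1.6e-08). Another gene, Gm38058, overlaps 17.8% of the Fzd5 exon length, and the libraries did not keep strand, so the Fzd5 counts are uncertain to that extent.

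Fzd1 rose by a like amount in both knockouts. Its levels were 63 and 67.8 CPM in the E12 WT and 105 and 94.6 in the E12 KO (0.61, SE 0.0759, adjusted p = 1.1e-05), and at 86.9 and 90.5 CPM in the E47 WT and 127 and 133 in the E47 KO (0.55, SE 0.0735, adjusted p = 1.7e-05). The difference was 0.06 (SE 0.105, adjusted p = 0.67). Fzd3, a receptor of axon guidance and planar polarity, was at 6.0 and 6.13 CPM in the E12 WT and 1.98 and 2.52 in the E12 KO (-1.44, SE 0.193, adjusted p = 2.2e-05). In E47 it was at 8.17 and 7.17 CPM in the wild type and 5.35 and 5.68 in the knockout (-0.46, adjusted p = 0.019), a call lost without the first E47 WT library (-0.38, 0.098), without the first E47 KO library (-0.41, 0.11) and with DESeq2 (-0.49, 0.089). The 2 changes of Fzd3 differed by -0.98 (SE 0.249, adjusted p = 0.0044).

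Fzd2 was at 193 to 206 CPM in the 4 E12 libraries, 221 and 232 in the E47 WT and 317 and 324 in the E47 KO (0.50, SE 0.063, adjusted p = 9.2e-06), and its changes differed by -0.43 (adjusted p = 0.0011). Fzd9, a minor receptor, was at 2.29 and 2.22 CPM in the E47 WT and 0.572 and 0.668 in the E47 KO (-1.86, SE 0.322, adjusted p = 1.9e-04), while the E12 libraries ran from 0.180 to 0.598 CPM. Fzd6, which orients hair follicles, was nearly level, from 105 to 132 CPM over all libraries, with a small fall in the E12 KO (-0.25, adjusted p = 0.0069) that was lost without the first E12 KO library (-0.19, 0.098). Fzd8 lay at 69.0 to 79.1 CPM in the E12 libraries and 144 to 168 in the E47 libraries and passed the test in neither knockout.

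**Figure D3:**
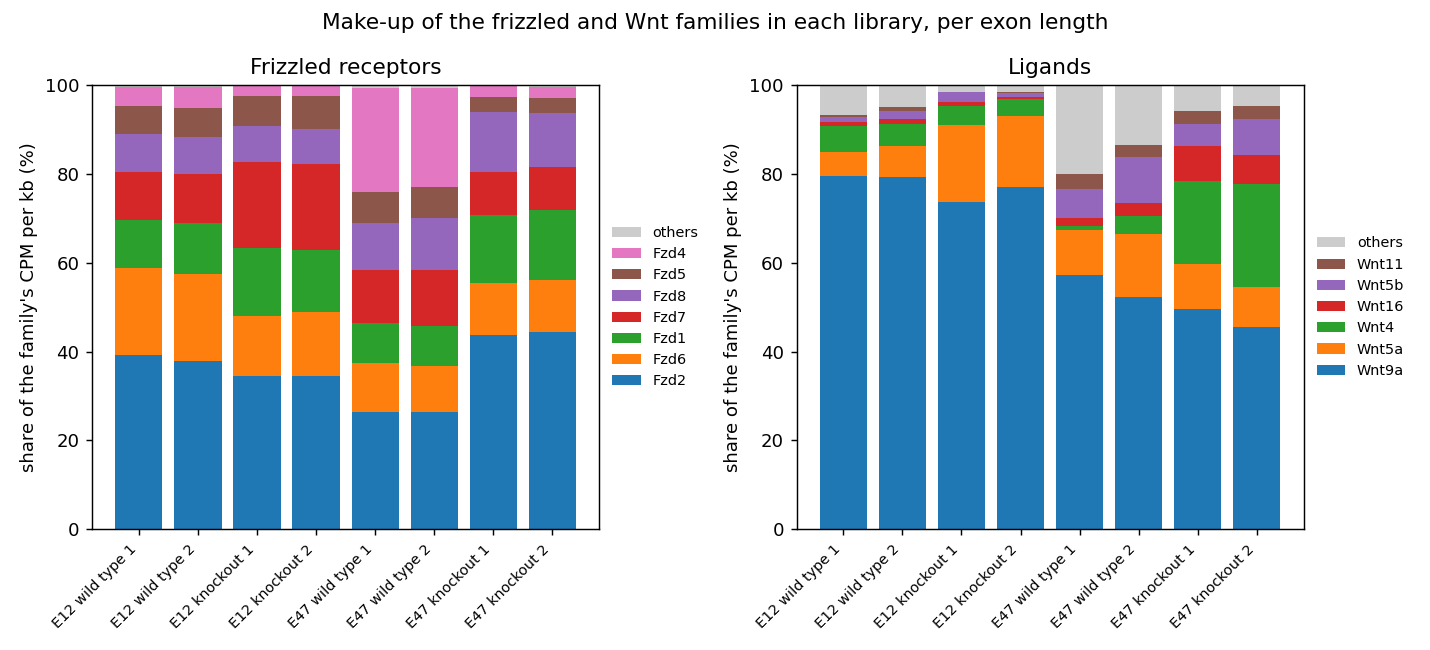
Share of the summed CPM per kb of exon taken by each frizzled gene (left) and each Wnt ligand (right) in each of the 8 libraries, in percent. Fzd4 took 22.9% of the frizzled signal in the E47 WT, and Wnt9a led the ligands in all 8 libraries.

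Among the co-receptors, Lrp5 and Lrp6 carry the beta-catenin branch. Lrp5 was at 326 and 348 CPM in the E12 WT and 229.5 and 233 in the E12 KO (-0.54, SE 0.0695, adjusted p = 1.5e-05). It was at 583 and 579 CPM in the E47 WT and 341 and 376 in the E47 KO (-0.70, SE 0.0689, adjusted p = 7.5e-07). Lrp5 thus fell in both, with a difference of 0.15 (SE 0.0976, adjusted p = 0.21). Lrp6 was at 102 and 148 CPM in the E12 WT, overlapping the E12 KO at 97.6 and 117, and fell from 184 and 186 CPM in the E47 WT to 93.9 and 94.6 in the E47 KO (-0.97, SE 0.127, adjusted p = 1.3e-05). The difference for Lrp6 was 0.75 (SE 0.179, adjusted p = 0.0029). Per kilobase, Lrp5 was above Lrp6 in every genotype, at 34.6 against 9.16 CPM per kb in the E12 WT and 59.6 against 13.5 in the E47 WT.

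The ROR genes, which encode receptors for WNT5A, moved in opposite directions between the E47 genotypes. Ror1 was at 25.7 and 29.8 CPM in the E47 WT and 52.4 and 55.7 in the E47 KO (0.95, SE 0.0849, adjusted p = 2.5e-07). Its levels were 41.2 and 44.4 CPM in the E12 WT and 54.6 and 55.6 in the E12 KO (0.37, SE 0.083, adjusted p = 0.0022), and the difference was -0.58 (SE 0.119, adjusted p = 9.2e-04). Ror1 was lowest in the E47 WT and rose in each knockout, as Wnt5a did. Ror2, on chromosome 13 from 53109312 to 53286124, was at 17.8 and 14.5 CPM in the E47 WT and 1.40 and 1.67 in the E47 KO (-3.38, SE 0.226, adjusted p = 9.7e-09), a 10.4-fold fall. In the E12 lines it was close to absent, with 3 counts in the wild type and 1 in the knockout, so no change can be read there. Endothelial marker levels moved with Ror2 between the E47 genotypes as they did with Fzd4. Smooth muscle markers were also lower in 10 of 12 and higher in 2 (median -1.04). The part of either marker set in the Ror2 change was not tested.

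In the R-spondin axis Rspo2 and Rspo3 fell and Lgr4 rose in the E47 KO. Rspo2 was at 37.5 and 39.6 CPM in the E47 WT and 12.5 and 12.3 in the E47 KO (-1.64, SE 0.0933, adjusted p = 1.4e-09). Its levels were 1.08 and 1.12 CPM in the E12 WT and 0.145 and 0.240 in the E12 KO (-2.51, SE 0.431, adjusted p = 2.3e-04), on 7 counts in the knockout. Rspo2 fell in both knockouts, from starting levels that did not overlap, and the difference of -0.87 (SE 0.463, adjusted p = 0.18) did not pass the test. Rspo3 was at 1.5 and 1.25 CPM in the E47 WT and 0.572 and 0.401 in the E47 KO (-1.43, adjusted p = 0.0084), a call lost without the second E47 KO library (-1.22, 0.074) and with DESeq2 (-1.5, 0.10), and it had 1 count in all E12 libraries together. Gm48159 overlaps 13.1% of the Rspo3 exon length, which leaves the Rspo3 counts uncertain to that extent. Rspo1 had 22 counts over all libraries, 12 of them in the E12 WT.

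Lgr4, the main R-spondin receptor here, was at 35.6 and 32.9 CPM in the E47 WT and 76.8 and 67.5 in the E47 KO (1.08, SE 0.084, adjusted p = 5.0e-08). The E12 libraries lay between these groups, at 47.2 and 47.8 CPM in the wild type and 40.3 and 44.0 in the knockout, and did not pass the test, and the changes differed by -1.26 (SE 0.12, adjusted p = 6.7e-07). Znrf3, the ligase that clears frizzled receptors, was at 18.2 and 17.0 CPM in the E47 WT and 10.1 and 10.5 in the E47 KO (-0.77, SE 0.11, adjusted p = 3.2e-05). In E12 it ran from 10 to 12.4 CPM with overlapping groups, and the changes differed by 0.92 (SE 0.162, adjusted p = 2.9e-04). Its paralog Rnf43 had 5 counts in the E47 KO and 0 elsewhere, and Lgr5 had 18 counts in all.

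Of the 5 tested transcription effectors, Ctnnb1 was higher in the E12 KO, and in the E47 KO Axin2 was higher and Tcf7 and Tcf7l1 were lower. Over all genes tested, 21.9% were higher and 24.5% lower in the E12 KO, and 27.7% and 27.5% in the E47 KO. Axin2, a feedback inhibitor that is itself switched on by beta-catenin, had 43 counts in the E47 KO, at 1.30 and 1.20 CPM, and 2 in the E47 WT, at 0 and 0.0780 CPM. The ratio was 24.9, with an exact 95% counting interval of 6.49 to 212, and the edgeR change was called (adjusted p = 4.1e-05). The change was also called with DESeq2 (4.68, adjusted p = 0.0010). Without the first E47 WT library, which had no count, the edgeR change was 3.89. Leaving out the second, which held both wild-type counts, could only enlarge the change (7.37). On so few counts these sizes depend on the prior count. In the E12 lines Axin2 was at 0.319 and 0.149 CPM in the wild type and 0.145 and 0.0601 in the knockout, 7 and 4 counts, with no call (adjusted p = 0.31). The difference between the changes was called (-5.58, SE 1.19, adjusted p = 0.0013), and it was at -4.92 (0.039) without the first E12 WT library, -6.33 (0.0028) without the first E12 KO library and -8.49 (0.0031) without the second E47 WT library. The E47 KO libraries were the only ones above 0.319 CPM of Axin2, a level that was low there too, at 0.227 CPM per kb beside 129.7 for Ctnnb1. Axin2 thus passed the filter on low counts only through the group where it was high.

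Ctnnb1, the beta-catenin gene itself, was at 573 and 554 CPM in the E12 WT and 750.0 and 724 in the E12 KO (0.39, SE 0.0639, adjusted p = 1.6e-04). It was at 623 and 649 CPM in the E47 WT and 684 and 663 in the E47 KO and did not pass the test there (0.08, SE 0.0637, adjusted p = 0.30). The difference between the changes was 0.31 (SE 0.0901, adjusted p = 0.011), and was lost without the second E47 WT library (0.28, adjusted p = 0.052). Exons of other genes, chiefly Ulk4, overlap 15.1% of the Ctnnb1 exon length, which leaves its counts uncertain to that extent.

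Of the TCF and LEF factors, Tcf7l1 and Tcf7l2 made up nearly all of the signal and Lef1 almost none. Tcf7l1, mostly a repressor in the absence of Wnt, was at 34.8 and 31.2 CPM in the E12 WT and 30.8 and 34.8 in the E12 KO (-0.01, SE 0.103, adjusted p = 0.93). It was at 58.7 and 55.6 CPM in the E47 WT and 35.9 and 43.6 in the E47 KO (-0.53, SE 0.0958, adjusted p = 3.0e-04), and the changes differed by 0.51 (SE 0.141, adjusted p = 0.0074). Tcf7l2 passed the test in neither knockout. Its E12 change was -0.06 (SE 0.0964, adjusted p = 0.64) and its E47 change -0.17 (SE 0.0931, adjusted p = 0.14), with a difference of 0.11 (adjusted p = 0.53) and levels of 36.4 to 48.9 CPM over all libraries. Tcf7 was at 2.65 and 2.46 CPM in the E47 WT and 1.40 and 1.20 in the E47 KO (-0.94, SE 0.268, adjusted p = 0.0078), a call lost without the second E47 KO library (-0.84, 0.054). Its levels were 2.23 and 1.94 CPM in the E12 WT and 1.06 and 1.5 in the E12 KO (-0.73, SE 0.289, adjusted p = 0.051), and the changes differed by 0.21 (SE 0.399, adjusted p = 0.69). Per length Tcf7l1 led in every genotype, with 60.6% ± 4.71 of the TCF and LEF signal in the E12 WT and 69.1% ± 0.526 in the E47 WT. Lef1 had 4 counts in all 8 libraries. T lymphocytes are rich in Lef1 and Tcf7. Of the 12 lymphocyte markers, Cd3e, Cd3d and Cd3g were at 0 in every library, whereas Trac was counted in all 8, at 0.351 to 1.66 CPM. The summed markers went from 0.624 to 0.645 CPM in the E47 WT to 1.20 to 1.72 CPM in the E47 KO, where the 1 marker tested was higher, and their part in the Tcf7 values was not tested.

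**Figure D4:**
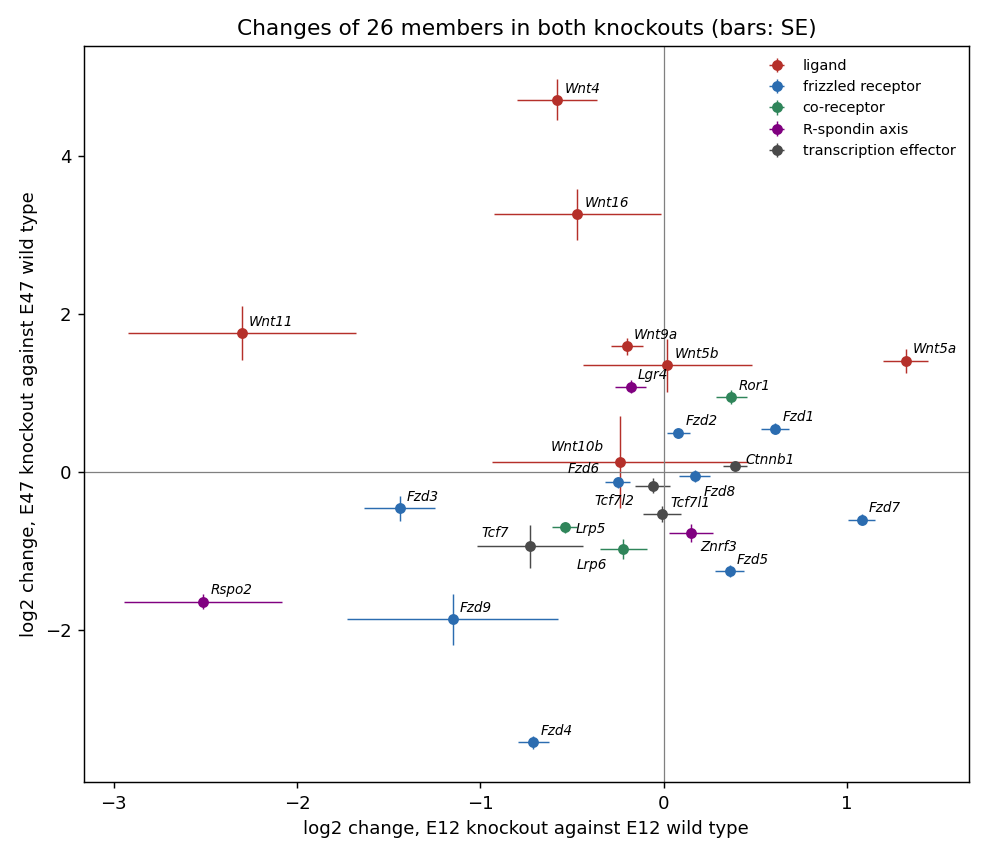
Log2 change in the E12 KO (horizontal) against that in the E47 KO (vertical) for the 26 members with more than 3 counts in each group, coloured by role, with bars of 1 SE. Wnt5a and Fzd1 lie to the upper right, Rspo2, Fzd3, Fzd4 and Lrp5 to the lower left, and Wnt4 and Wnt11 to the upper left.

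The 2 wild types differed from each other in the same classes. In the E12 WT 6 of 32 members were higher and 16 lower than in the E47 WT, against 27.8% and 27.6% of all genes (55.4% in either direction), with a median of -0.28 beside 0.00. Among ligands 4 of 10 were higher and none was lower (0 also at an unadjusted p under 0.05 and with DESeq2), and among frizzled genes 7 of 9 were lower and none was higher (0 in the same counts). Wnt4 was higher by 3.29 (SE 0.314), or by 4.74 without the second E47 WT library, Wnt9a by 2.82 (SE 0.105) and Wnt5a by 1.25 (SE 0.158) on the log2 scale, with adjusted p of 4.0e-07 (9.3e-07 without that library), 6.0e-12 and 8.3e-06. Wnt2 was the fourth (2.10, adjusted p = 0.036), a call lost without the first E12 WT library (2.02, 0.096), without the second E47 WT library (0.87, 0.43) and with DESeq2 (1.88, 0.15), and at 4.12 (0.0081) without the first E47 WT library. Fzd4 was lower by 8.75-fold (-3.13, SE 0.0795, adjusted p = 9.8e-14), Rspo2 by 34.9-fold (-5.12, SE 0.149, adjusted p = 4.3e-13), Fzd8 by 2.25-fold and Lrp5 by 1.72-fold. Ror2, with 619 counts in the E47 WT and 3 in the E12 WT, differed by a ratio of 151 (exact 95% counting interval 51.5 to 736), and Rspo3, with 53 and 1, by 38.9 (6.68 to 1564). On those few counts the fitted change moved with the E12 WT library left out, from -6.10 (without the first) to -11.17 (without the second) for Ror2 and from -7.59 (without the first) to -4.26 (without the second) for Rspo3. The controls of the 2 knockouts were therefore far apart in these genes, and the comparisons share them, so no count of agreement between the comparisons is given.

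Small differences between the wild types were less firm. Ctnnb1 was lower in the E12 WT (-0.18, SE 0.0638, adjusted p = 0.030). That call was lost when any library of either wild type was left out (-0.20 to -0.15, adjusted p = 0.053 to 0.17). It was also lost without either E12 KO library (-0.17, adjusted p = 0.050 and 0.051) and in a fit of the wild types alone (-0.17, 0.057). Tcf7l2 was lower as well (-0.25, adjusted p = 0.036), and its call was lost without the first E12 WT library (-0.09, 0.48), either E47 WT library (-0.24, 0.10, and -0.26, 0.11) or either E47 KO library (-0.24, 0.055 each), with DESeq2 (-0.26, 0.068) and in the fit of the wild types alone (-0.25, 0.063). Tcf7l1 was lower by 1.72-fold (-0.79, SE 0.0989, adjusted p = 8.0e-06). Fzd2 was lower by 1.16-fold (-0.22, adjusted p = 0.0087), lost without the second E47 WT library (-0.18, 0.093). For Axin2 and Tcf7 the wild types did not pass the test (adjusted p = 0.084 and 0.38).

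Other genes of the pathway, from lists outside the 46 members, were counted for context, beside 21.9% higher and 24.5% lower of all genes in the E12 KO and 27.7% and 27.5% in the E47 KO. Of 7 tested genes of Wnt secretion and extracellular handling, 6 were lower in the E12 KO and 1 did not pass the test, and 4 were lower and 2 higher in the E47 KO. Sulf1, a heparan sulfate sulfatase gene, fell in both, from 879 ± 21.4 to 533 ± 27.1 CPM in E12 and from 1652 ± 41.2 to 741 ± 32.0 CPM in E47, whereas its paralog Sulf2 fell in E12 (-0.43) and rose in E47 (0.93). Of 18 destruction complex genes 6 were higher and 3 lower in E12, and 4 higher and 5 lower in E47, near the 46.4% and 55.2% of all genes called in either direction. Csnk1a1, the kinase that primes beta-catenin for degradation, rose in the E12 KO from 272 ± 3.66 to 488 ± 15.3 CPM, and Gsk3b, the next kinase in that step, fell in the E47 KO from 280.3 ± 19.3 to 167 ± 6.17 CPM. Of 15 nuclear cofactor genes 3 were higher and 7 lower in E12, and 2 higher and 8 lower in E47. Pygo1, a beta-catenin coactivator gene, fell in E12 from 4.85 ± 1.17 to 0.446 ± 0.461 CPM.

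Of 14 tested genes that are common beta-catenin targets, 2 were higher and 9 lower in the E12 KO (median -0.62), and 7 were higher and 6 lower in the E47 KO (median 0.06). Over all genes 21.9% were higher and 24.5% lower in E12 (median -0.01), and 27.7% and 27.5% in E47 (median 0.01). Ccnd1, the cyclin D1 gene, fell in the E12 KO from 1687 ± 50.4 to 916 ± 43.0 CPM (-0.88) and rose in the E47 KO from 407 ± 24.6 to 805 ± 53.3 CPM (0.98), with a difference of -1.87 (adjusted p = 1.6e-09). Apcdd1, an inhibitor induced by Wnt, fell by 1.53 and rose by 1.07 on the log2 scale, with a difference of -2.59 (adjusted p = 7.0e-09), and the growth factor gene Fgf18 fell by 1.11 and rose by 1.57, with a difference of -2.68 (adjusted p = 2.5e-11). Myc did not share that pattern and rose in both knockouts, by 0.21 in E12 (edgeR adjusted p = 0.033) and 0.73 in E47 (adjusted p = 2.1e-06). These genes respond to other pathways too. Of 10 secreted antagonist and Kremen genes 2 were higher and 5 lower in E12, and 3 higher and 5 lower in E47. Frzb, a secreted frizzled-like antagonist, fell from 25.4 ± 0.594 to 2.22 ± 0.756 CPM in E12 and from 558 ± 22.1 to 14.5 ± 2.61 CPM in E47.

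Genes of planar cell polarity and other beta-catenin-independent branches gave 6 higher and 6 lower of 20 in each knockout, near the 27.7% and 27.5% of all genes in E47 and beside 21.9% and 24.5% in E12. Ptk7, a polarity co-receptor gene, fell in E12 from 29.2 ± 0.148 to 3.59 ± 0.0230 CPM and in E47 from 83.5 ± 1.41 to 15.5 ± 1.18 CPM. Daam2, a formin gene downstream of dishevelled, rose in E12 from 4.06 ± 1.13 to 62.4 ± 0.156 CPM (3.96, SE 0.133, adjusted p = 8.1e-12) and by 0.69 in E47. Of 4 tested co-receptor relatives 1 was higher and 2 lower in E12, and 2 higher and 1 lower in E47. Reck, which encodes a co-receptor for WNT7 ligands, fell in both, from 129 ± 0.590 to 58.8 ± 5.47 CPM in E12 and from 612 ± 13.5 to 153 ± 1.79 CPM in E47, and Tspan12, the partner of FZD4 in norrin signalling, fell in E12 from 27.1 ± 0.886 to 3.67 ± 0.267 CPM. Adgra2, from the same list, went the other way and rose in E12 from 11.2 ± 1.29 to 37.6 ± 0.539 CPM (1.75, edgeR adjusted p = 2.0e-09). In E47 Adgra2 rose from 10.1 ± 0.261 to 12.7 ± 0.228 CPM (0.33, adjusted p = 0.018). Lgr6, a relative of Lgr4, rose in E47 from 5.34 ± 0.770 to 18.9 ± 0.996 CPM (1.79, SE 0.132, adjusted p = 2.9e-08).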

How the data were processed

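Bulk mRNA was sequenced from 8 libraries of mouse aortic smooth muscle cells. Per the labels' protocols the libraries were polyA-enriched and unstranded. The tools in the submitters' processing notes are featureCounts, HISAT and FastQC, with GRCm38 or mm10 as build, and versions, settings and annotation were not given in the sources used here. Raw counts were deposited by the authors, 1 column per library and 1 line per gene symbol.

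These were fitted with edgeR 4.0.16 (R 4.3.3). Its filter on low counts left 13992 genes, scaling was by the trimmed mean of M values, and a model with 1 mean per genotype was fitted to all 8 libraries (4 residual degrees of freedom, common biological coefficient of variation 0.0598). Quasi-likelihood F tests compared each knockout with its wild type, the 2 knockout changes with each other and the 2 wild types, with Benjamini-Hochberg adjustment over all genes tested. SE is the log2 change divided by the square root of F. Where a group has 3 counts or fewer, a fitted change depends on the prior count and gives no size, so a ratio with its counting interval is given for the knockout and wild-type comparisons. Libraries of a genotype differed by more than counting noise (chi-square per degree of freedom 4.67 to 13.2). The procedure was tested on simulated data. Exon lengths, positions and overlaps come from GENCODE M21 (GRCm38), and CPM per kb uses the merged exon length. Alternatives were DESeq2 1.42.0, its size factors in edgeR, no filter, only the groups compared, and leaving out each library.

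The members and lists were chosen with earlier results of these data known. Values, mostly in every library, are given for members past the test in a knockout with an absolute log2 change of at least 1 and a mean of at least 2 CPM in a group (14 genes) and for Ctnnb1, Axin2 and the TCF and LEF genes. Wnt5b and Fzd9 in E12 and Tcf7l2 are given as ranges, and Ror2 in E12 and Lef1 as counts. The other called members given with values (among them Fzd1, Fzd2, Fzd6, Lrp5, Lrp6, Ror1, Znrf3, Rspo3, Wnt2, Wnt2b and Wnt7b) fall outside that rule and were chosen after their values were seen. From each other list the genes named are among the 4 with the lowest p in either knockout.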

Additional observations from a re-analysis of the deposited data

Results flagged for a closer look

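For 19 of the 32 tested members the change in the E12 KO differed from that in the E47 KO by edgeR's test of the difference, where 48.6% of all genes did. The difference is the E12 log2 change minus the E47 log2 change. Among ligands it was -5.49 for Wnt2, -5.29 for Wnt4, -4.06 for Wnt11, -4.02 for Wnt7b, -3.73 for Wnt16 and also -3.73 for Wnt2b, and -1.79 for Wnt9a. All 7 of these were negative, and Wnt2, Wnt2b and Wnt7b had 2 counts or fewer in the E12 KO, so their fitted sizes depend on the prior count. Among frizzled genes it was 2.72 for Fzd4, 1.68 for Fzd7, 1.62 for Fzd5, -0.43 for Fzd2 and -0.98 for Fzd3. For the co-receptors and the R-spondin axis it was 0.75 for Lrp6, -0.58 for Ror1, -1.26 for Lgr4 and 0.92 for Znrf3. For the effectors it was -5.58 for Axin2, which had 2 counts in the E47 WT, 0.51 for Tcf7l1 and 0.31 for Ctnnb1. The wild types that serve as controls differed in most of these genes, so a difference between changes includes a difference between starting levels.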

How the results depend on the processing

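Of the 81 calls of members over the 4 comparisons, 66 stayed past the test in the same direction under every alternative run and 15 were lost under at least 1, with no called change reversed. The count of lower members in the E12 KO (9) ran from 5 to 11 when single libraries were left out, with 5 without the first E12 KO library. The other counts of members stayed within 1.5 times. Uncalled changes near 0 changed sign. Over the fits that left out 1 library, the E12 change ran from -0.09 to 0.08 for Tcf7l1 and from -0.22 to 0.11 for Tcf7l2, and the difference between the knockout changes ran from -0.02 to 0.13 for Fzd1, -0.03 to 0.46 for Tcf7, -0.05 to 0.28 for Tcf7l2 and -0.31 to 0.13 for Wnt5a. Without the filter on low counts the E12 change of Tcf7l1 was 0.00. The cause was not tested. DESeq2 size factors moved the median of all genes by -0.016 to 0.011 on the log2 scale. Where leaving out a library left a genotype with 1 library, it was assumed to vary like the others. No paired analysis was possible because the labels give the genotypes no shared replicate numbers. Depth limits the ligands below about 1 CPM.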
